A study of Mus musculus with 8 samples.

Results

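The C/EBP genes encode transcription factors that are named for the CCAAT/enhancer they bind. They were taken as the 7 genes Cebpa, Cebpb, Cebpd, Cebpe, Cebpg, Cebpz and Ddit3, of 55487 genes listed in the count table, and each was measured well enough to be among the 13400 genes tested. The genes were chosen by name to set the members that stress and hormones induce, Cebpb, Cebpd and Ddit3, against Cebpa, the steady factor of hepatocytes, and their values between genotypes were known when the choice was made. The differences of the 7 genes between genotypes are therefore given as a description, with no test.

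RNA was sequenced from whole liver of male adult mice fed a Western diet for 12 weeks. Mc1r LKO mice (n = 4, mice 141, 156, 157 and 182) carried floxed alleles of Mc1r, the melanocortin 1 receptor, together with Alb-Cre, a Cre recombinase that the albumin promoter drives in hepatocytes. Control mice (n = 4, mice 154, 159, 181 and 193) were age-matched Mc1r fl/fl animals without Cre, so that the presence of Cre and the loss of Mc1r cannot be told apart. All groups shared the diet, the floxed alleles and a fast before the end of the experiment. Mc1r itself had 0 counts in every mouse, which allows a level of up to 0.121 to 0.279 CPM (the count scaled to the size of the library) at 3 counts, so its deletion could not be checked at this depth. Each library held between 10773151 and 24763375 counts. Control mouse 181 and Mc1r LKO mouse 182 stood apart on the first principal component of log2 CPM (scores of 27.8 and 59.3, against -28.2 to -7.03 in the other mice), which held 37.6% of the variance, and control mouse 159 on the second (40.5, against -22.0 to 8.40). The hepatocyte markers, Alb, Apoa1 and Hnf4a among them, were detected in every mouse and summed to 74057 to 94077 CPM in control and 81878 to 107344 CPM in Mc1r LKO mice.

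Most C/EBP proteins are basic leucine zipper (bZIP) factors, which bind DNA as pairs with each other or with related factors. In the liver, C/EBPα keeps the genes of the mature hepatocyte on and restrains cell division, whereas C/EBPβ and C/EBPδ are made in larger amounts during inflammation, fasting and hormone treatment and drive acute phase and gluconeogenic genes. CHOP, the product of Ddit3, is induced when the endoplasmic reticulum is under stress and, as a partner, keeps other C/EBP proteins off their usual sites. C/EBPγ lacks an activation domain of its own, and C/EBPε belongs to maturing granulocytes. Cebpz is named after the same CCAAT sequence, but its product is a nucleolar protein of ribosome assembly and not a bZIP factor.

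The upstream sequences of a steady and of 2 induced members are shown because they differ in the short motifs that sit close to the start site. RefSeq windows on GRCm38.p6 were held for 4 of the 7 genes (Cebpa, Cebpb, Ddit3 and Cebpg). The lines below give the plus strand of chr7:35119043-35119292 for Cebpa, of chr2:167688665-167688914 for Cebpb and of chr10:127290543-127290773 for Ddit3. Each runs up to the base before the first exon base of the gene in the count table. For Cebpa and Cebpb that base is also the RefSeq start. The Ddit3 line ends 19 bases before its RefSeq start, since those bases lie inside its annotated exon. Capitals mark TATAAA in Cebpa, the core TGACG of the cAMP response element on either strand (CGTCA on the other) in Cebpb, and the CCAAT box, read as ATTGG on the opposite strand, in Ddit3.
Cebpa: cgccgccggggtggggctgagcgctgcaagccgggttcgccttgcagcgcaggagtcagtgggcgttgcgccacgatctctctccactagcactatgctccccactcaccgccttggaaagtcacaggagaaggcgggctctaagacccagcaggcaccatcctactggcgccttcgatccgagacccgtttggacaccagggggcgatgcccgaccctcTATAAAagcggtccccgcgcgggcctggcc
Cebpb: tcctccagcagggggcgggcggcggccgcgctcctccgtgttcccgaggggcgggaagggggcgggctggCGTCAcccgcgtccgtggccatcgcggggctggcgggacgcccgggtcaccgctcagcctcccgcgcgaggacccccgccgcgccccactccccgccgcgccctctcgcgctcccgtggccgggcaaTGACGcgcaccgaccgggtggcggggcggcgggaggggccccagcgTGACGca
Ddit3: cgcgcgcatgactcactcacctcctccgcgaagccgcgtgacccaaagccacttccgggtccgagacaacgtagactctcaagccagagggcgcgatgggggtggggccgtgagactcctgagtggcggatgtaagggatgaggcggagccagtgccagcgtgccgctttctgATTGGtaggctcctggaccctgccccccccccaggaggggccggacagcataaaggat

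Positions are counted from the RefSeq start, which for Ddit3 lies beyond the end of the printed line. Cebpa held TATAAA at bases -30 to -25, a motif found on either strand in 12.4% of 32851 windows of 250 bases. Cebpb held 3 copies of TGACG, at -180 to -176, -53 to -49 and -7 to -3, where 17.8% of windows held at least 1 and 0.688% at least 3. It also held 5 copies of the GC box GGGCGG, 2 of them overlapping, against 1.93% of windows with at least 5. Ddit3 held 1 CCAAT box, at -77 to -73, and Cebpg held 2, at -89 to -85 and -28 to -24. At least 1 was found in 33.8% of windows, and the share with at least 2 was not counted. The palindromic C/EBP site TTGCGCAA, the full cAMP response element TGACGTCA, the glucocorticoid receptor motif AGAACA, the STAT site TTCNNNGAA and the C/EBP-ATF element TGATGCAA, searched on both strands, were found in none of the 4 windows, against 0.164%, 1.55%, 16.1%, 7.02% and 0.791% of all windows. The looser C/EBP site TTNNGNAA (36.8% of windows), the full glucocorticoid response element (0.00913%) and the endoplasmic reticulum stress element (0.113%) were not found in them either. TGACG is contained in TGACGTCA, AGAACA in the full element and CCAAT in the stress element, and TGACG and the counts of copies were chosen after the sequences were seen. A match of letters is not a shown binding site, and elements farther from the start were not searched.

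The steady member, Cebpa, hardly varied. Cebpa (ENSMUSG00000034957, chr7:35119293-35121928, plus strand, 1 exon) stood at 448, 494, 511 and 484 CPM in control mice 154, 159, 181 and 193 and at 469, 505, 457 and 531 CPM in Mc1r LKO mice 141, 156, 157 and 182. The groups overlapped, with means of 484 ± 26.7 and 490 ± 33.9 CPM (SD, n = 4 each). The log2 fold change was 0.02 (SE 0.09), a fold of 1.01. Its SD within genotype was 0.09 on the log2 scale, and 5.91% of all genes tested had a smaller one. Counting error is smaller at its 5315 to 11880 counts than in genes of few counts, and genes of like level were not compared.

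The induced member Cebpb was 1.53-fold higher in Mc1r LKO mice. Cebpb (ENSMUSG00000056501, chr2:167688915-167690418, plus strand, 1 exon) had 94.9, 93.0, 99.3 and 52.4 CPM in control mice 154, 159, 181 and 193 and 107, 169, 101 and 142 CPM in Mc1r LKO mice 141, 156, 157 and 182. The groups did not overlap, but control mouse 181 and Mc1r LKO mouse 157 were nearly equal, and control mouse 193 lay far below the other controls. The means were 84.9 ± 21.8 and 130 ± 31.9 CPM (SD, n = 4 each), with a log2 fold change of 0.61 (SE 0.22). Without control mouse 193 the log2 fold change was 0.45. In a bulk sample, more cells of a type and more RNA per cell cannot be told apart. Macrophages also make C/EBPβ, and their 12 markers, Adgre1, Clec4f and Csf1r among them, summed to 405 to 1016 CPM in control and 285 to 628 CPM in Mc1r LKO mice. Of these markers 11 of 12 were lower in Mc1r LKO mice, where 6988 of 13400 genes tested were lower. The 1016 CPM was that of control mouse 159. The median log2 fold change of the markers was -0.43, and -0.14 without this mouse. Whether macrophages contributed to the difference in Cebpb was not tested.

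Cebpd had the larger and the more even difference. Cebpd (ENSMUSG00000071637, chr16:15887286-15891031, plus strand, 1 exon) had 9.62, 7.34, 9.22 and 8.07 CPM in the control mice and 16.4, 15.7, 15.4 and 13.2 CPM in Mc1r LKO mice 141, 156, 157 and 182. The lowest Mc1r LKO mouse was well above the highest control. The means were 8.57 ± 1.05 and 15.2 ± 1.39 CPM (SD, n = 4 each), a fold of 1.76 and a log2 fold change of 0.82 (SE 0.13). Leaving out any 1 mouse gave log2 fold changes of 0.76 to 0.88, and the SD within genotype was 0.16 on the log2 scale against 0.40 for Cebpb.

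Ddit3, unlike Cebpb and Cebpd, overlapped between genotypes. It (ENSMUSG00000025408, chr10:127290774-127296288, plus strand, 4 exons) had 7.28, 6.41, 14.0 and 6.24 CPM in control mice 154, 159, 181 and 193 and 9.06, 9.10, 8.52 and 14.0 CPM in Mc1r LKO mice 141, 156, 157 and 182. The groups overlapped through control mouse 181. This mouse and Mc1r LKO mouse 182 each lay well above the rest of their group. The means were 8.48 ± 3.69 and 10.2 ± 2.57 CPM (SD, n = 4 each), and the log2 fold change was 0.26 (SE 0.28), which ran from 0.07 without Mc1r LKO mouse 182 to 0.62 without control mouse 181 and was 0.43 without both, an alternative added after the data were seen. These were the mice that stood apart on the first principal component. Hspa5, the chaperone BiP that endoplasmic reticulum stress induces, was likewise highest in these mice, at 1353 and 1892 CPM against 816 to 1009 CPM in the other controls and 862 to 910 CPM in the other Mc1r LKO mice. Trib3, a target of CHOP, was lowest in the same mice, at 7.66 and 4.39 CPM against 10.2 to 14.8 CPM in the other 6. A second identifier with the symbol Ddit3 lay over 105 bases of its exons and had 0 counts in every mouse, and reads in these bases could be counted for neither.

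**Figure D1:**
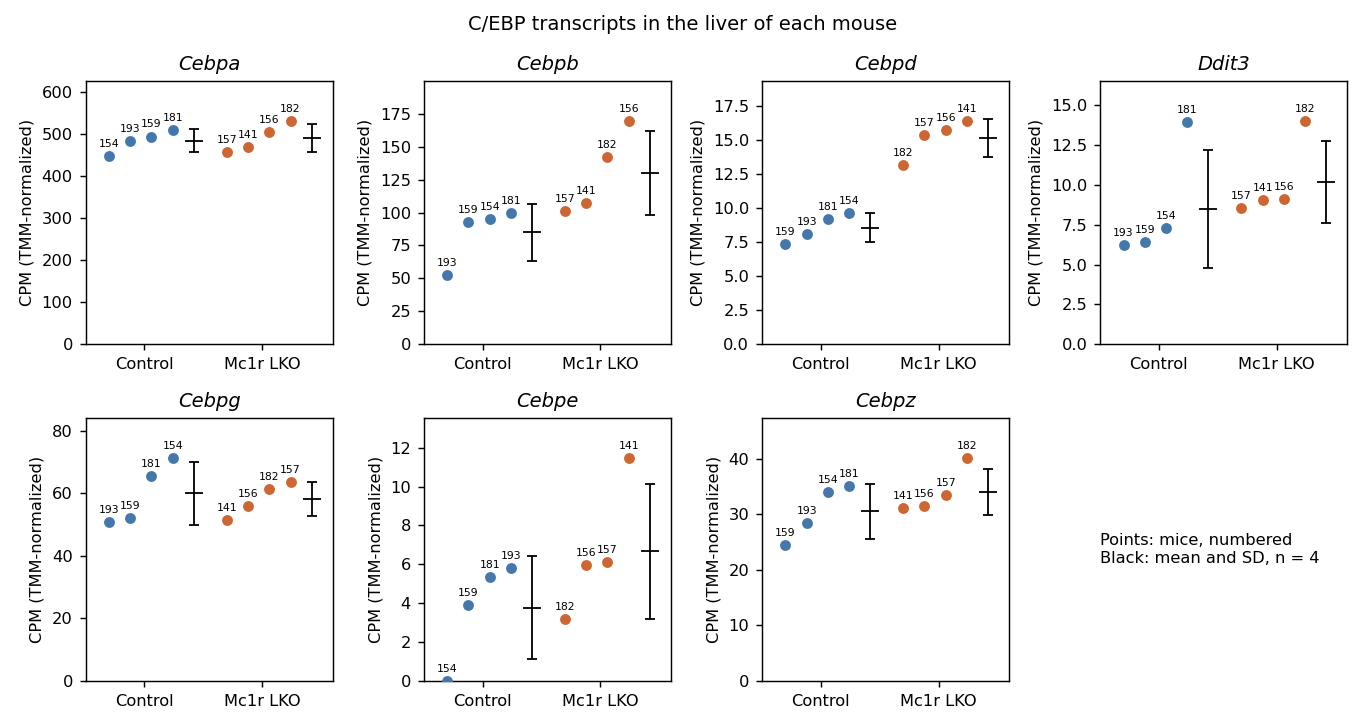
CPM of the 7 C/EBP genes in each mouse, ordered by value within a group, with the mean and SD of the 4 mice of a group and a separate vertical scale for each gene. Cebpd separates the groups widely, Cebpb by 99.3 against 101 CPM at its nearest mice, and the other 5 genes overlap.

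The remaining members overlapped between genotypes. Cebpg (ENSMUSG00000056216, chr7:35046422-35056573, minus strand, 3 exons, 73 of whose bases are shared with Gm44836), which encodes a partner without its own activation domain, had 71.4, 52.2, 65.7 and 50.9 CPM in control and 51.6, 56.1, 63.8 and 61.3 CPM in Mc1r LKO mice. Its means were 60.0 ± 10.1 and 58.2 ± 5.45 CPM (SD, n = 4 each), with a log2 fold change of -0.05 (SE 0.13) whose sign turned when some mice were left out (-0.11 to 0.05). Cebpz (ENSMUSG00000024081, chr17:78919006-78937066, minus strand, 16 exons) had 34.0, 24.5, 35.1 and 28.5 CPM in control and 31.2, 31.5, 33.4 and 40.1 CPM in Mc1r LKO mice. Its means were 30.5 ± 4.97 and 34.0 ± 4.16 CPM (SD, n = 4 each), with a log2 fold change of 0.16 (SE 0.13).

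Cebpe, the granulocyte member, had no counts in 1 mouse. Cebpe (ENSMUSG00000052435, chr14:54710360-54712174, minus strand, 2 exons) had 0, 3.90, 5.37 and 5.83 CPM in control mice 154, 159, 181 and 193, and 11.5, 5.98, 6.10 and 3.17 CPM in Mc1r LKO mice 141, 156, 157 and 182. The 0 in mouse 154 allows up to 0.160 CPM, while the other mice held 42 to 166 counts. The log2 fold change of 0.81 (SE 0.76) fell to 0.39 without mouse 154, and the groups overlapped. Only 2 tested genes, Cebpe and Gm43305, had 0 counts in mouse 154 and at least 40 in every other mouse, against 1 gene for mouse 182 and 0 for the other 6 mice. Of the 12 neutrophil markers only 3 passed the filter, and 8, Mpo and Elane among them, were at 0 in some mouse. Their sum was 7.66 CPM in mouse 154 and 6.41 to 14.6 CPM over the controls. Csf3r alone held 9.20 of the 14.6 CPM, which were those of control mouse 159. In mouse 141, highest for Cebpe, the sum was 4.98 CPM, the lowest of the Mc1r LKO mice (4.98 to 10.9 CPM). So small a sum cannot show how granulocytes varied, and whether they contributed to Cebpe was not tested.

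**Figure D2:**
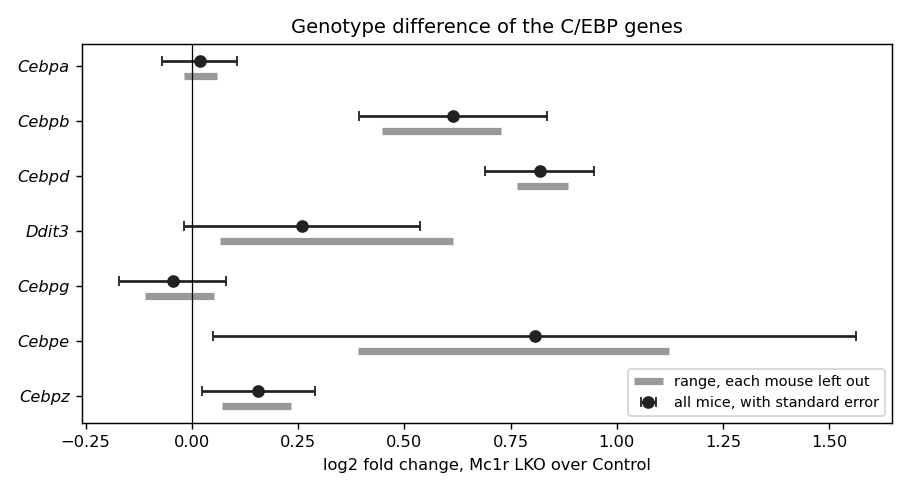
Log2 fold change of each C/EBP gene (Mc1r LKO over control) with its SE as the thin bar. A thick grey bar gives the range of the values with 1 mouse left out, and other settings are not drawn. Cebpb (0.61) and Cebpd (0.82) keep their distance from 0, Cebpa stays within 0.06 of it, and Ddit3 and Cebpe spread widely.

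Counted over the family, 2 of 7 members (Cebpb and Cebpd) were higher in every Mc1r LKO mouse than in every control, and the other 5 overlapped. Over all genes tested, 2.63% were higher in every Mc1r LKO mouse and 1.54% lower, and nothing is read from the count because the genes were chosen with this contrast known. No gene of the 13400 passed an adjusted p of 0.05 (Benjamini-Hochberg) by the quasi-likelihood test of edgeR, while 901 had an unadjusted p under 0.05, and DESeq2 called 17.

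Levels can be set side by side once the counts are divided by exon length, as CPM per kilobase. Cebpa was the most abundant member, at 185 ± 10.8 CPM per kilobase (SD, n = 8), followed by Cebpb at 71.4 ± 23.2, Cebpg at 10.5 ± 1.34, Cebpz at 6.93 ± 0.998, Ddit3 at 5.44 ± 1.80, Cebpe at 4.21 ± 2.62 and Cebpd at 3.17 ± 0.990 CPM per kilobase. The level of Cebpa exceeded that of Cebpb by 1.44 (SD 0.47) on the log2 scale in 8 of 8 mice, and Cebpb exceeded Cebpg by 2.7 (SD 0.49) in 8 of 8. Cebpg lay above Cebpz by 0.61 (SD 0.16) and Ddit3 above Cebpd by 0.78 (SD 0.51), also in 8 of 8 mice. Each of these 4 steps had p = 0.00781 in a two-sided exact sign-flip permutation test within mice, the smallest p that 8 mice allow (0.00977 adjusted over the 5 pairs compared). The pairs are neighbours in the order that the same 8 mice gave, so the direction of each step was taken from these data and its p is not independent of that order. Cebpz lay above Ddit3 by 0.40 (SD 0.31) in 7 of 8 mice (exact permutation p = 0.0234, adjusted 0.0234), and Cebpe was not compared because of its 0. Without the division by length, the order of Ddit3 and Cebpd turned (-0.35 on the log2 scale), as Cebpd has 3746 exon bases against 1713.

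Set against Cebpa in the same mouse, the level of Cebpb per kilobase was 37.2%, 33.0%, 34.1% and 19.0% of that of Cebpa in control mice 154, 159, 181 and 193 and 40.1%, 58.8%, 38.7% and 46.9% in Mc1r LKO mice 141, 156, 157 and 182. The groups did not overlap, and the means were 30.8 ± 8.09% and 46.1 ± 9.16% (SD, n = 4 each). Cebpd stood at 1.51%, 1.05%, 1.27% and 1.17% of Cebpa in the control mice and at 2.46%, 2.19%, 2.37% and 1.75% in the Mc1r LKO mice, again without overlap (1.25 ± 0.198% and 2.19 ± 0.317%). Ddit3 had 2.67 ± 1.05% and 3.17 ± 0.60% of the level of Cebpa, Cebpg 5.85 ± 1.20% and 5.58 ± 0.655%, and Cebpz 3.58 ± 0.654% and 3.93 ± 0.341%, in control and Mc1r LKO mice, with overlap in each. Since Cebpa hardly varied, the differences of the log2 ratios, 0.61 (SE 0.26) for Cebpb and 0.81 (SE 0.16) for Cebpd, stayed near the log2 fold changes of the genes alone.

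**Figure D3:**
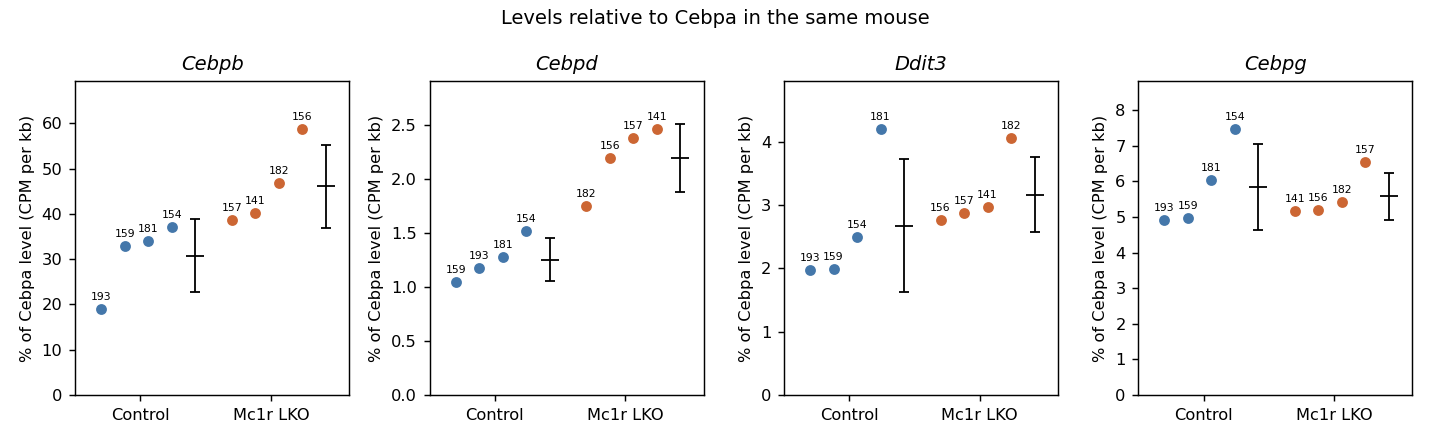
Level of Cebpb, Cebpd, Ddit3 and Cebpg as a percentage of the level of Cebpa in the same mouse. Levels are per kilobase of exon, by genotype, with mean and SD (n = 4) and a separate linear axis for each gene. Cebpb and Cebpd are higher in all Mc1r LKO mice than in all controls, while Ddit3 and Cebpg overlap.

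How far the members followed each other within genotypes was read from correlations. The log2 CPM of each gene was centred on its genotype mean, and the 15 pairs of the 6 genes without a 0 were compared over 8 mice. No pair passed after Benjamini-Hochberg adjustment, and 1 pair had an unadjusted p under 0.05 by Pearson's r and 0 by Spearman's rho. The highest r was that of Cebpg and Cebpz (r = 0.79, exact permutation p = 0.0903, adjusted 0.677, rho = 0.69), and r was 0.82 without the 2 mice farthest from the median of Cebpg. The pair under 0.05 was Ddit3 and Cebpz (r = 0.77, exact permutation p = 0.0399, adjusted 0.599, rho = 0.64), and r was 0.63 without the 2 mice farthest from the median of Ddit3. Cebpb and Ddit3 had r = 0.47 and rho = 0.69. Cebpb and Cebpd, both induced, had r = 0.09 and rho = 0.31 (exact permutation p for r = 0.856). As a description over 8 mice, with no test, the genes whose centred log2 CPM was most like that of Cebpa were Cdkn2aip, Zfp445, Aldh1l1, Shmt2 and Tmem25 (r of 0.98 down to 0.97), those most like Cebpb were Itga1, Srsf2, Tsr2, Atp5g1 and Gm17530 (0.98 to 0.95), and those most like Cebpd were Atp9b, Tcaf2, Depp1, Nup93 and Pigv (0.98 to 0.96). These are the 5 highest of the correlations with each member over 13400 genes, each over 8 mice centred on 2 genotype means.

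The genes around the C/EBP factors were read from 11 lists, set out by the role they have towards the family. A listed gene is called higher or lower where its unadjusted p by edgeR's quasi-likelihood test is under 0.05 and its log2 fold change is 0.25 or more in size, as 5.31% of all genes tested were (2.64% higher and 2.66% lower), and no gene of any list passed an adjusted p of 0.05. The median log2 fold change of all genes was -0.01, and 6412 of 13400 had a positive value.

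Among the signals that induce Cebpb and Cebpd, the list of the glucocorticoid receptor and glucocorticoid-induced genes had the most calls. Of its 19 genes, 11 were higher and 0 lower, with a median log2 fold change of 0.75. In only 4 of the 19 was every Mc1r LKO mouse above every control, against 2.63% of all genes tested. With 1 mouse left out, 9 to 13 were called higher, and 12 without mice 181 and 182. The lists were drawn up with earlier results of these data known, so nothing is read from the order of their counts. Fkbp5, a co-chaperone of the glucocorticoid receptor, had 20.7, 22.5, 16.1 and 22.9 CPM in control and 51.0, 42.5, 37.4 and 44.6 CPM in Mc1r LKO mice, with no overlap (log2 fold change 1.09, SE 0.13, adjusted p = 0.118 in edgeR's quasi-likelihood test). Nr3c1, the receptor itself, was not called (-0.18). Of 16 genes of interleukin-6 and STAT3 signalling, 2 were higher, both without overlap: Il6ra, the receptor subunit that binds interleukin-6 (0.70), and Nfkbia, the inhibitor of NF-κB (0.37). Stat3 (-0.03) and Socs3 (-0.23), its feedback inhibitor, were not called, and the median was -0.08. Of 19 genes of cAMP and CREB signalling, the clock gene Per1, also among the 11 called glucocorticoid-induced genes, was higher (0.76) and the phosphodiesterase Pde4b was lower (-0.44, without overlap). Ddit3 belongs with 30 stress response genes, of which 1, the asparagine synthetase gene Asns, was called (0.99, at 1.24 ± 0.754 and 2.53 ± 0.798 CPM), while Atf4, Hspa5 and Trib3 were not (0.07, 0.18 and 0.18).

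Among target genes, 2 of 14 hepatocyte genes with described C/EBP sites were higher, Tat, which breaks down tyrosine (0.88) and is also 1 of the 11 called glucocorticoid-induced genes, and Arg1, of the urea cycle (0.34), and 11 of 14 had a positive value. Pck1 and G6pc, of gluconeogenesis, were not called (0.46 and 0.30), nor was Alb (0.11). Of 24 acute phase genes, which C/EBPβ and C/EBPδ are known to drive, 0 were higher and 1, Orm3, was lower (-0.65), with a median of 0.02. Saa1, Saa2 and Lcn2, which the acute phase raises steeply, were at -0.23, -0.37 and -0.58 and were not called. Control mouse 159 had the highest level of each among the controls, and without it the values were 0.17, 0.20 and -0.18, and the median of the list was 0.16. Of 11 genes of the adipogenic programme that C/EBP factors share with Pparg, 0 were called and the median was -0.17 (Pparg -0.17, Cidec -0.47).

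Among partners and regulators, the list of other bZIP genes had 29 tested members and a median of 0.07, and Mafg was lower without overlap (-0.29). Of 20 genes for turnover and translation of C/EBP proteins, 1, Eif4ebp1, an inhibitor of cap-dependent translation, was higher (0.29). Of 17 other hepatocyte transcription factor genes, Foxa3 was higher (0.84, 26.2 ± 2.15 and 46.7 ± 26.0 CPM, with mouse 182 at 85.5 CPM) and Onecut2 lower (-0.33), while Hnf4a was not called (0.15). Of 20 genes that assemble the large ribosomal subunit, the process of Cebpz, Nip7 was higher (0.28), and 18 of 20 had a positive value. Their median was 0.11, and 0.06 with total-count scaling. The calls of Il6ra, Nfkbia, Per1, Pde4b, Fkbp5 and Foxa3 held under every setting tried, with Foxa3 at 0.37 without mouse 182, while that of Nip7 was lost under 10 settings, DESeq2, no filter and total-count scaling among them, Arg1 under 7, Tat and Asns under 5 each, Onecut2 under 4, Eif4ebp1 under 3, Mafg under 2 and Orm3 under 1. The medians of 7 of the 11 lists changed sign under at least 1 other setting: without Mc1r LKO mouse 182 the hepatocyte target genes had a median of -0.08, the acute phase genes of -0.10, the stress response genes of -0.02, the bZIP genes and the hepatocyte factors of -0.03, and the turnover genes of -0.02, and the cAMP genes had a median near 0 without control mouse 159. The medians of the glucocorticoid, interleukin-6, adipogenic and ribosome lists kept their sign. Total-count scaling moved the median of all genes to -0.06 and the share of calls that were higher from 49.8% to 25.3%.

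**Figure D4:**
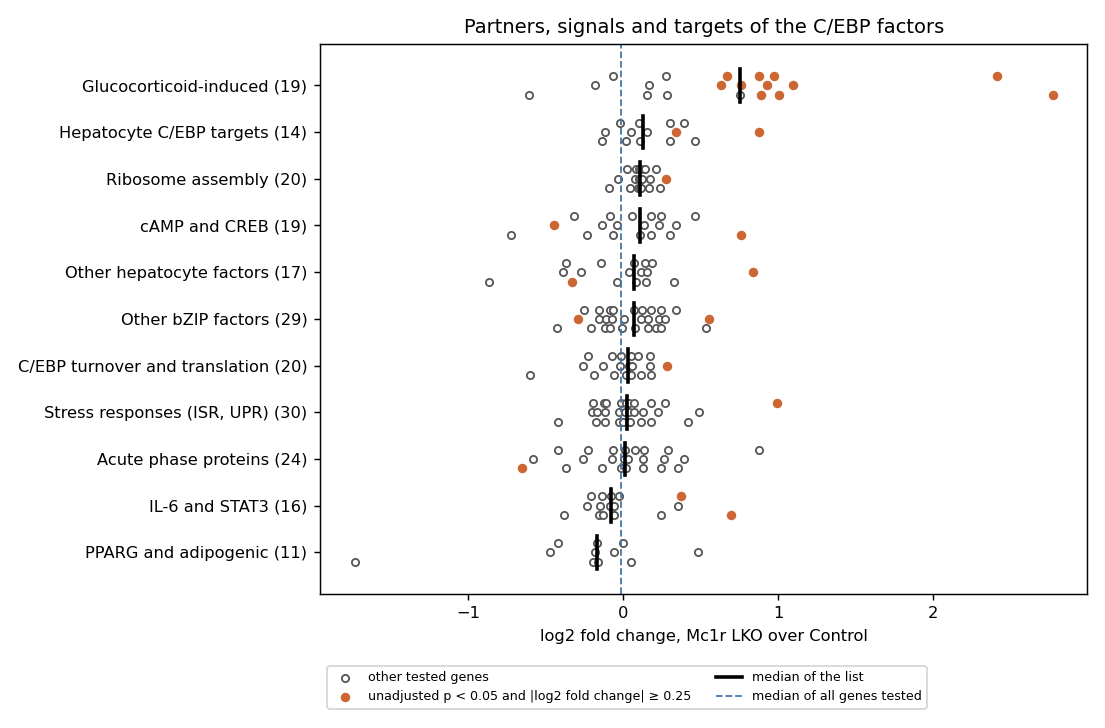
Log2 fold change (Mc1r LKO over control) of each tested gene in the 11 lists, with filled points for genes past the unadjusted limit, a bar at the median of the list and a dashed line at the median of all 13400 genes. The list of the glucocorticoid receptor and glucocorticoid-induced genes has its median farthest to the right, with 11 of 19 called. The lists were drawn up with earlier results of these data known, so nothing is read from their order. The acute phase genes are spread around 0.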

How the data were processed

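RNA of 8 livers was sequenced as bulk libraries. According to the submitters' processing notes and the count table, the authors trimmed reads with Trim Galore 0.6.6, aligned them to GRCm38 with STAR 2.7.6a and counted them per gene with featureCounts of Subread 2.0.1; the study's methods write the build as GRCh38, a human name, and the coordinates here are those of the count table. The deposited values are raw counts per gene, and per the file headers the annotation was Ensembl release 102 and strand option 2 was used. Reads over several genes are left out by this counting, which can lower the counts of overlapping genes.

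Genes were filtered with filterByExpr (minimum count 10, minimum total 15), scaled by trimmed mean of M values (TMM) and fitted by genotype with edgeR 4.0.16 (quasi-likelihood test, Benjamini-Hochberg adjustment over 13400 genes) in R 4.3.3. CPM use TMM-scaled library sizes, and log2 CPM a prior count of 2. The fit was tested on simulated counts, with mice drawn independently and folds larger than those of Cebpb and Cebpd. Of 194 changed genes that were tested it called 152, with 6 false calls. Smaller folds, and variation that many genes share as on the first principal component, were not simulated. The biological coefficient of variation was 0.209. Floors are 3 counts in a library and cover counting error only. Nothing says that mice came from separate litters or cages, so p-values measure the spread between these mice. No batch was named in the sources used here.

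The members and lists were chosen with earlier results of these data known. Genes named are all members, anchor genes of each list, up to 4 called genes of each list by p, and the 5 genes most like Cebpa, Cebpb and Cebpd; from these a part is printed. Alternatives were DESeq2 1.42.0, limma-voom (limma 3.58.1), other size factors, total-count scaling, no filter, a filter of 10 counts in every mouse, and each mouse left out. Promoter windows are from RefSeq. Bases inside annotated exons of the gene were left out of the printed lines but not of the motif search. Protein sequences and the upstream windows of Cebpd, Cebpe and Cebpz were not used here. A listed gene is not reported here.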

Additional observations from a re-analysis of the deposited data

Results flagged for a closer look

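A mouse stood apart from the other 3 of its group, by the gap to its nearest neighbour over the range of the group (Dixon's test at 95%), in 16 of 124 groups of 4 that were checked. Chance would give about 6.2 if the groups were independent and normally spread. The genes share the same 8 mice, so nothing is read from the difference. Among the C/EBP genes this held for Cebpb in control mouse 193 (52.4 CPM, others 93.0 to 99.3), for Ddit3 in control mouse 181 (14.0 CPM, others 6.24 to 7.28) and for Ddit3 in Mc1r LKO mouse 182 (14.0 CPM, others 8.52 to 9.10). Mc1r LKO mouse 182 was also apart for Hspa5 (1892 CPM, others 862 to 910), Trib3 (4.39, others 13.9 to 14.8), Saa2 (40.8, others 80 to 87.9), Socs3 (14.8, others 5.05 to 5.85), Mt1 (177, others 28.9 to 49.0), Mt2 (155, others 14.8 to 25.9) and Foxa3 (85.5, others 32.0 to 37.1). Control mouse 159 was apart for Socs3 (24.5 CPM, others 3.86 to 5.16) and Csf3r (9.20, others 3.35 to 3.67), and control mouse 181 for Mt1 (6.93, others 15.9 to 16.5). Control mouse 193 was apart for Creb1 (18.1 CPM, others 14.5 to 14.9) and Pparg (22.0, others 29.2 to 30.4), and control mouse 154 for Jun (62.8, others 30.7 to 35.3).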

How the results depend on the processing

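Settings tried were 14 for each of the 7 members, and 13 for Cebpe, which the filter of 10 counts in every mouse removes. All moved by less than their SD within genotype, but this yardstick cannot show that they were stable. Leaving out 1 mouse shifts a group mean by only part of the SD of the group, so those settings could hardly exceed it. The SD of Cebpe, 2.04 on the log2 scale, also includes its 0 in control mouse 154. Cebpb ran from 0.45 to 0.73, Cebpd from 0.76 to 0.88 and Ddit3 from 0.07 to 0.62 on the log2 scale. Cebpe ran from 0.39 without control mouse 154 to 2.11 with limma-voom. Cebpa and Cebpg changed sign, between -0.03 and 0.06 and between -0.11 and 0.05. Against 0 genes past an adjusted p of 0.05, DESeq2 called 17 and edgeR without a filter 1, and no mouse left out gave any call. Against 711 genes past the unadjusted limit, no filter gave 1140, and leaving out 1 mouse gave 606 to 931. The share of these calls that were higher was 49.8%, 25.3% with total-count scaling, and 41.8% to 67.4% with 1 mouse left out. Without division by length, the level of Ddit3 over Cebpd was -0.35 on the log2 scale, which follows from their unequal lengths. No paired analysis was possible because the sources used here give neither the litter nor the cage of these mice. The values of Cebpe, with 0 to 166 counts in a mouse, and of Ddit3 moved most with single mice left out.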
